A study of Mus musculus with 3 samples.

Results

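The kappa variable segments were taken as every gene row whose symbol starts with Igkv, which gave 160 of the 32285 genes listed. Their use was read in spleen B cells, defined by 2 or more unique molecular identifiers (UMIs, each the count of 1 captured RNA molecule) of Cd79a, and in plasma cells, defined by 3 or more UMIs of Jchain together with 2 or more summed over Sdc1, Tnfrsf17, Prdm1 and Derl3. A cell meeting both rules was counted as a plasma cell. The 3 libraries, always given in the order control, Ang II, B6.SLE123, held 12956, 11356 and 12772 B cells and 16, 35 and 290 plasma cells, of 15700, 14023 and 16708 cells kept.

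The study asked how isolevuglandins, reactive products of lipid oxidation, act on immune cells in lupus and hypertension. Splenocytes depleted of T cells with CD3 beads were measured by 5′ single-cell RNA sequencing in 3 libraries, each pooling 2 conditions of 3 mice, at 12 to 14 weeks of age. The C57BL/6 control library held male mice with sham minipumps and female mice. The C57BL/6 Ang II library held male mice given angiotensin II by 2-week minipump from 10 weeks, with placebo or with 2-HOBA (2-hydroxybenzylamine, an isolevuglandin scavenger). The B6.SLE123 library held mice of this lupus-prone congenic strain, with placebo or 2-HOBA for 6 weeks from 7 weeks. Strain, sex and library cannot be told apart. Cells carried 1 of 6 antibody hashtags, C0301 to C0306, in each library, and nothing in the labels ties a hashtag to a condition or a mouse. The hashtag populations were therefore used only to show how much a value varied within a library, no test was made with 1 library per group, and 2-HOBA was not analysed. All intervals below are 95% intervals and cover counting error only.

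A kappa light chain gene is assembled in the developing B cell, when the RAG recombinase joins 1 variable segment to a joining segment upstream of the constant gene Igkc. Most B cells then express a single rearranged light chain, so the variable segment in the RNA marks the cell and all cells descended from it. Segments that lie in the same orientation as Igkc are joined by deletion, and segments in the opposite orientation by inversion. Some pairs of a kappa and a heavy chain segment are known for what they bind: Igkv14-126 with Ighv11-2, and Igkv4-91 with Ighv12-3, form antibodies to phosphatidylcholine that are typical of B-1 cells, the self-renewing B cells of the body cavities that also occur in spleen.

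The last bases of a variable segment encode the end of framework 3 and the start of the third complementarity-determining region, the loop that differs most between segments. The final 60 bases of 10 segments on which the results turn are printed here from GENCODE vM21 transcripts on build GRCm38, 5′ to 3′ on the coding strand. Capitals mark 3 codons in a row that encode tyrosine, tyrosine or phenylalanine, and the conserved cysteine, with which framework 3 ends. The first pair are the segments of the phosphatidylcholine antibodies, the next 4 are the leading segments of control B cells, and the last 4 are segments repeated in B6.SLE123 plasma cells.
Igkv14-126, chr6:67896583-67896642, plus strand: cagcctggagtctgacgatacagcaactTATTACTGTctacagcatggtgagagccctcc
Igkv4-91, chr6:68768555-68768614, minus strand: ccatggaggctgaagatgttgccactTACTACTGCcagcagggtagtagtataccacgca
Igkv1-117, chr6:68121768-68121827, plus strand: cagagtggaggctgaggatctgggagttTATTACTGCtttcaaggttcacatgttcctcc
Igkv10-96, chr6:68631963-68632022, minus strand: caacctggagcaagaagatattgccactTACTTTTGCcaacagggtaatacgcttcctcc
Igkv1-135, chr6:67610449-67610508, plus strand: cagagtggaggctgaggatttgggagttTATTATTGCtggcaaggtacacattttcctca
Igkv1-110, chr6:68271208-68271267, plus strand: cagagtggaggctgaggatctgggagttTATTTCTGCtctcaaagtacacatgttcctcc
Igkv3-4, chr6:70672318-70672377, plus strand: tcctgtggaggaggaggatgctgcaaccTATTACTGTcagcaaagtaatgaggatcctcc
Igkv6-23, chr6:70260409-70260468, minus strand: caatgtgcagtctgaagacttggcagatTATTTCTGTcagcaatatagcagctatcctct
Igkv8-24, chr6:70216858-70216917, minus strand: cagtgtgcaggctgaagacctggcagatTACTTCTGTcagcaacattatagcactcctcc
Igkv2-109, chr6:68303099-68303158, plus strand: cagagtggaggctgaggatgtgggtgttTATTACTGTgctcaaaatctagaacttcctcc
The Cys motif searched in this way was present in 97 of the 100 segments annotated as variable genes and in 34 of the 60 annotated as pseudogenes. Many segments resemble each other: 63 of the 160 had another segment at 95% identity or more over the transcript and 8 had one at 98% or more, so reads could be dropped or shared between such copies. Igkv1-117 and Igkv1-110 were 97.5% identical, whereas the nearest copy of Igkv14-126 was Igkv14-111 at 91.6% and that of Igkv4-91 was Igkv4-60 at 88.0%.

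The libraries held 44146350, 59043555 and 63516694 gene UMIs, and the median over the cells kept was 1759, 2724 and 1888 UMIs, so that the Ang II library was the deepest per cell. Barcodes positive for several hashtags, 13.5%, 11.4% and 18.0%, were removed as doublets. From 415 to 496 barcodes occurred in both libraries of each pair of libraries, and they were kept. CPM are counts scaled to a common total of UMIs. The summed level of 6 B cell markers was 7272 to 8306 CPM in B cells and 1418 to 1972 CPM in plasma cells. That of 7 plasma cell markers was 35172 to 46316 CPM in plasma cells and 513 to 1117 CPM in B cells. These lists include Cd79a, Jchain, Sdc1, Tnfrsf17, Prdm1 and Derl3, which defined the classes, so the sums were partly fixed by the rules. Outside the rules, Ms4a1 was at 1159, 1093 and 1053 CPM in B cells and 36.4, 128 and 104 CPM in plasma cells. Mzb1 was at 459, 409 and 673 CPM in B cells and 5364, 3252 and 4222 CPM in plasma cells. Neutrophil markers, which B cells lack, summed to 768, 926 and 1222 CPM in B cells. Their part in the results was not tested.

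Nearly every B cell could be given a segment. A cell was assigned the segment with the most UMIs, at least 2 and more than any other, which is called its top segment. This held for 11932, 10651 and 12068 B cells, or 92.1%, 93.8% and 94.5%, with a median of 15, 23 and 17 Igkv UMIs per B cell. In plasma cells, which secrete antibody, the median was 1324, 3425 and 2906 Igkv UMIs, and 15, 34 and 288 cells had a top segment. A second segment with at least 3 UMIs and 30% of the first was found in 13.2%, 14.7% and 15.7% of B cells, and in 45.7%, 44.8% and 44.4% of B cells among barcodes with several hashtags.

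Igkv RNA was also found outside B cells. Cells with 0 UMIs of the B cell genes Cd79a, Cd79b and Ms4a1, outside the plasma cell rule and with 5 or more UMIs summed over S100a8, S100a9, Nkg7, Cst3 and Cd3e, should lack it. Of these non-B cells 18.0% of 1476 in the control library, 30.6% of 1296 in the Ang II library and 59.7% of 1864 in the B6.SLE123 library had an Igkv UMI, at median depths of 1768, 2960 and 1746.5 UMIs. A top segment was called in 1.08%, 2.62% and 15.2% of these cells, and one of 5 or more UMIs in 0.136%, 0.0772% and 1.18%. In B6.SLE123, Igkv1-110 gave 10.3% of the Igkv UMIs of non-B cells, compared with 5.26% in B cells and 8.80% in plasma cells. In Ang II, Igkv8-27 gave 18.0% of them, compared with 1.72% in B cells and 5.01% in plasma cells.

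Of the 160 segments, 21 had no UMI in any B or plasma cell, all of them pseudogenes. The top segment of some B cell was 1 of 107 segments, of which 97 were annotated variable genes. Pseudogenes were the top segment of 0.134%, 0.178% and 0.0414% of B cells. Among the B cells, 100, 101 and 96 segments were seen as top segment in the 3 libraries.

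Usage in control B cells was uneven, and a few segments led. Igkv1-117 was the top segment of 612 control B cells (5.13%, interval 4.74 to 5.54), and in hashtags from 4.27% to 6.37% with a median of 4.85%. Igkv10-96 followed with 609 cells (5.10%, hashtags 4.63% to 6.03%), Igkv1-135 with 545 cells (4.57%, hashtags 4.09% to 5.19%) and Igkv1-110 with 452 cells (3.79%, hashtags 2.88% to 4.33%). The ranges of the leading 3 overlapped, so their order was not distinguished. Igkv6-15, Igkv6-17, Igkv14-111, Igkv9-120, Igkv12-44 and Igkv19-93 made up the rest of the leading 10, from 3.39% down to 2.61%. The 10 most used segments held 35.9% of control B cells, and 17 segments sufficed for more than 50% of cells in each library. There were 38, 40 and 42 segments above 1% in the 3 libraries.

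The other libraries used the locus in much the same way. The leading 10 held 35.3% of Ang II and 36.0% of B6.SLE123 B cells. Igkv10-96 was the top segment of 5.54% of Ang II and 5.21% of B6.SLE123 B cells, Igkv1-117 of 4.47% and 4.67%, and Igkv1-135 of 4.26% and 4.85%. Over the 107 segments the shares had a Pearson correlation of 0.993 between the control and Ang II libraries and of 0.970 between the control and B6.SLE123 libraries (Spearman 0.991 and 0.972). These are descriptions across segments, which are not replicates, and each library contributed the values of 1 axis.

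**Figure D1:**
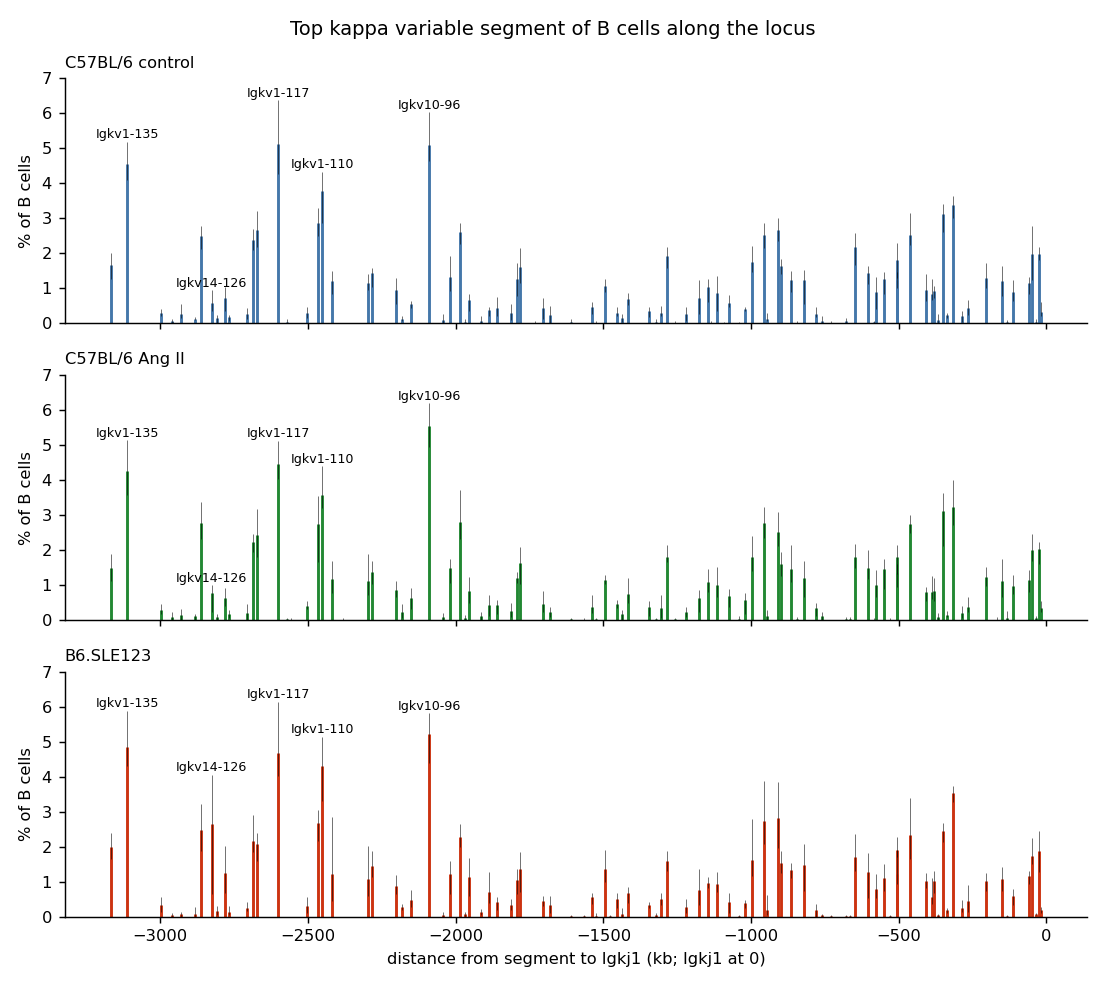
Share of B cells (%) by top segment in the 3 libraries, against the distance of the segment from Igkj1 in kb; coloured bars give the library's share and thin black lines the lowest to highest of its 6 hashtags. The tallest bars, Igkv1-135, Igkv1-117, Igkv1-110 and Igkv10-96, stood at the same places in all 3 panels, and Igkv14-126 was 0.595%, 0.770% and 2.65% of B cells.

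Segments are spread over chromosome 6 from 67555497 to 70704177 on GRCm38, and Igkj1 lies at 70722562 to 70722599 with Igkc at 70726435 to 70726966 on the plus strand. The 53 segments farthest from Igkj1 were used by 40.6%, 39.5% and 42.5% of B cells. The 53 nearest were used by 42.5%, 42.9% and 40.1%, and the 54 between them by 16.9%, 17.6% and 17.4%. The middle of the locus was thus used least in every library, although it has 29 annotated variable genes, as many as the farthest part and fewer than the 42 of the nearest part. The farthest part was 1.90 percentage points higher in B6.SLE123 and 1.09 points lower in Ang II than in control, and in both cases the hashtag ranges overlapped.

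Orientation divided the B cells nearly evenly. The 85 segments opposite in orientation to Igkc, joined by inversion and 62 of them annotated variable genes, were used by 51.8%, 53.2% and 52.5% of B cells, and the 75 in the same orientation by the others. Distance to Igkj1 had a Spearman correlation of -0.01 with usage in control B cells over 107 segments, a description with no test.

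By the share of cells, B6.SLE123 B cells differed from control B cells mainly in 1 segment. Igkv14-126 was the top segment of 320 B6.SLE123 B cells (2.65%, interval 2.37 to 2.95) and of 71 control B cells (0.595%, interval 0.465 to 0.750), a log2 ratio of 2.16 with an interval of 1.78 to 2.55. Of the 72 segments that were top in at least 50 B cells of the 2 libraries together, 2 were higher by more than 2-fold and none was lower by more than 2-fold, and for none did the 6 hashtag values of one library lie apart from those of the other. The other segment past 2-fold was Igkv1-99, at 34 against 16 cells (0.282% against 0.134%, log2 1.07, interval 0.17 to 2.03), which only just reached the minimum of 50 cells. The log2 ratios ran from -0.72 to 2.16 with a median of -0.02. By the share of summed Igkv UMIs more segments passed 2-fold. Igkv4-91 (log2 2.15) and Igkv3-5 (log2 1.76) were among the higher and Igkv3-1 (log2 -1.25) among the lower.

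For comparison, of 11544 genes with at least 50 UMIs over both libraries, 5.54% were higher and 1.82% lower by more than 2-fold in CPM in B6.SLE123 B cells, while 9.57% were higher and 10.2% lower with hashtag ranges apart. By the same measure, 13 of the 100 Igkv segments tested were higher and 7 lower by more than 2-fold, and 1 and 0 had ranges apart. The median log2 ratio was 0.02 over these Igkv segments and -0.04 over all genes. CPM weighs a cell by its RNA: the 1% of B cells with the most Igkv UMIs held 11.3%, 5.03% and 27.0% of all Igkv UMIs in the 3 libraries, and shares of cells are given for this reason.

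The higher share of Igkv14-126 was not spread evenly over the B6.SLE123 hashtags. In control hashtags C0301 to C0306 its share was 0.486%, 0.343%, 0.822%, 0.944%, 0.458% and 0.738% of B cells. In B6.SLE123 hashtags it was 4.06%, 3.81%, 0.657%, 2.23%, 0.744% and 3.65%. Hashtags C0303 and C0305 of B6.SLE123 lay within the control range, and the other 4 lay above every control hashtag.

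Other differences between B6.SLE123 and control were smaller. Igkv12-89 (84 against 47 cells, log2 0.82, interval 0.29 to 1.37), Igkv9-124 (152 against 88 cells, log2 0.77, interval 0.38 to 1.17) and Igkv4-70 (62 against 36 cells, log2 0.77, interval 0.15 to 1.40) came next among the higher segments. Igkv9-124 went the other way when UMIs rather than cells were counted (log2 -0.90), and it gave 5.93% of the Igkv UMIs of B6.SLE123 non-B cells against 1.21% of those of B cells. Among the lower segments were Igkv3-1 (24 against 39 cells, log2 -0.72, interval -1.51 to 0.05), Igkv3-7 (71 against 108, log2 -0.62, interval -1.07 to -0.18), Igkv6-20 (68 against 99, log2 -0.56), Igkv4-53 (51 against 70, log2 -0.47) and Igkv9-120 (251 against 319, log2 -0.36). All of these had overlapping hashtag ranges. In all, 9 of 72 intervals lay above 0 and 5 below, while the hashtag ranges overlapped for all 72. The intervals cover counting error only, and the share of all genes past the same limit was not computed. These counts are therefore not read as a result about the segments.

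Ang II B cells differed less from control. None of 69 segments passed 2-fold in the share of cells, and the log2 ratios ran from -0.40 for Igkv1-122 to 0.58 for Igkv4-70. Over 11486 genes, 1.09% were higher and 0.845% lower by more than 2-fold in CPM, and 7.62% were higher and 4.82% lower with ranges apart. By that CPM measure, 3 of 101 Igkv segments were higher (2.97%) and 6 lower (5.94%) by more than 2-fold, and 1 and 0 had ranges apart. Igkv4-50, Igkv2-112, Igkv12-38 and Igkv14-126 followed Igkv4-70 at 0.46, 0.39, 0.38 and 0.37. At the other end, Igkv4-74 and Igkv4-58 were at -0.30, Igkv6-32 at -0.28 and Igkv8-21 at -0.24. All 5 highest intervals included 0, and over the 69 segments 0 intervals lay above 0 and 2 below. Here too, no share of all genes was computed for the intervals, and their counts are not read as a result. For Igkv14-126 the counts were 82 of 10651 Ang II and 71 of 11932 control B cells, with an interval of the log2 ratio from -0.10 to 0.85.

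**Figure D2:**
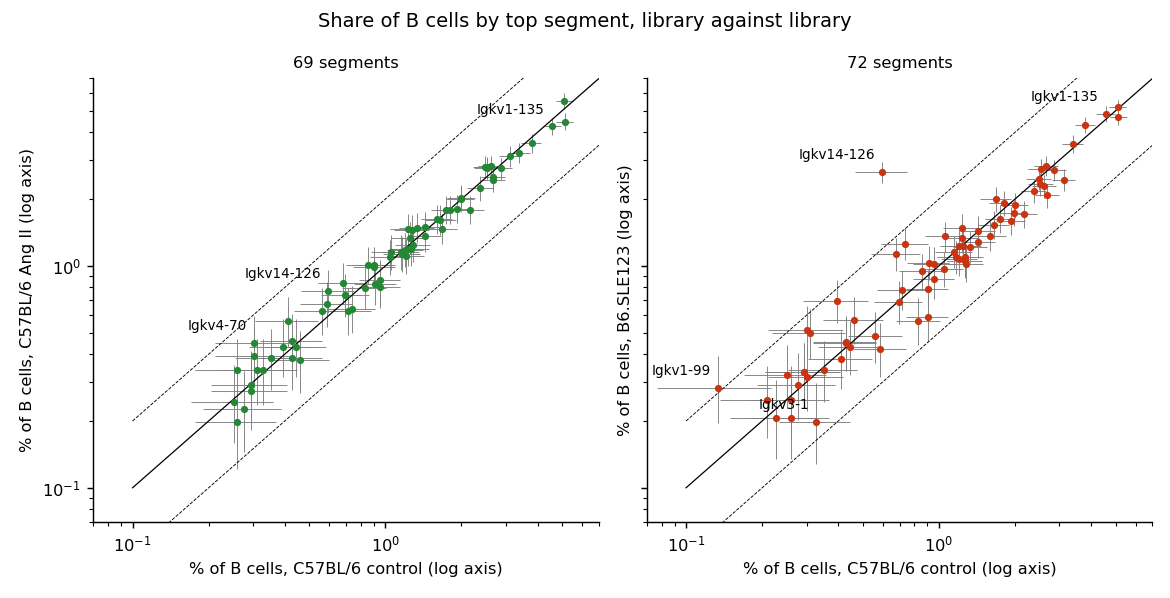
Share of B cells by top segment in the Ang II library (left, 69 segments) and the B6.SLE123 library (right, 72 segments) against the control library, on log axes; points are segments with 95% counting intervals, the solid line marks equal shares and the dashed lines 2-fold. Igkv14-126 stands far above the upper dashed line at 2.65% against 0.595% in B6.SLE123, and lies within the lines in Ang II.

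The heavy chain partner of Igkv14-126 also differed between libraries. A top heavy chain segment was called by the same rule, and both chains were called in 6609 control, 8887 Ang II and 7056 B6.SLE123 B cells. The pair Igkv14-126 with Ighv11-2 was found in 12 control cells (0.182%, interval 0.0939 to 0.317), 29 Ang II cells (0.326%, interval 0.219 to 0.468) and 236 B6.SLE123 cells (3.34%, interval 2.94 to 3.79). The pair was 18.4-fold more frequent in B6.SLE123 than in control (log2 4.20, interval 3.37 to 5.18), and 1.80-fold in Ang II (log2 0.85, interval -0.17 to 1.95). Igkv14-126 with any other heavy chain was found in 36 control cells (0.545%), 42 Ang II cells (0.473%) and 50 B6.SLE123 cells (0.709%), a log2 ratio of 0.38 with an interval of -0.27 to 1.04 for B6.SLE123 against control. Of the Igkv14-126 cells with a heavy chain called, 25% were paired with Ighv11-2 in control, 40.8% in Ang II and 82.5% in B6.SLE123.

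The pair reached 5.39%, 4.70%, 0.185%, 2.20%, 0.252% and 5.54% of B cells with both chains called in B6.SLE123 hashtags C0301 to C0306. In control hashtags it ranged from 0.0718% to 0.379%, and in Ang II hashtags from 0 of 1542 cells to 0.576%. C0303 and C0305 of B6.SLE123 lay inside the control range, on 2 cells each. Both chains were called in 2, 0 and 25 non-B cells of the 3 libraries, too few to set beside the share in B cells, and none of them held the pair. Igkv14-126 RNA alone, at 1 UMI or more, was found in 26 of 1864 B6.SLE123 non-B cells (1.39%), against 2 of 1476 in control (0.136%). By the same count it was found in 4.38% of B6.SLE123 and 0.841% of control B cells, and the part of such RNA in the share of B cells was not tested.

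The second phosphatidylcholine pair, Igkv4-91 with Ighv12-3, was rarer and was most frequent in the same 3 hashtags of B6.SLE123. It was found in 5 control cells (0.0757%), 4 Ang II cells (0.0450%) and 35 B6.SLE123 cells (0.496%), a log2 ratio of 2.71 against control with an interval of 1.35 to 4.42. In B6.SLE123, C0306 had 14 such cells (0.982%), C0302 had 11 (0.976%) and C0301 had 7 (0.524%), while C0304, C0305 and C0303 had 2, 1 and 0. Igkv4-91 itself was the top segment of 81 control (0.679%), 89 Ang II (0.836%) and 136 B6.SLE123 B cells (1.13%, log2 0.73 against control, interval 0.32 to 1.15).

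**Figure D3:**
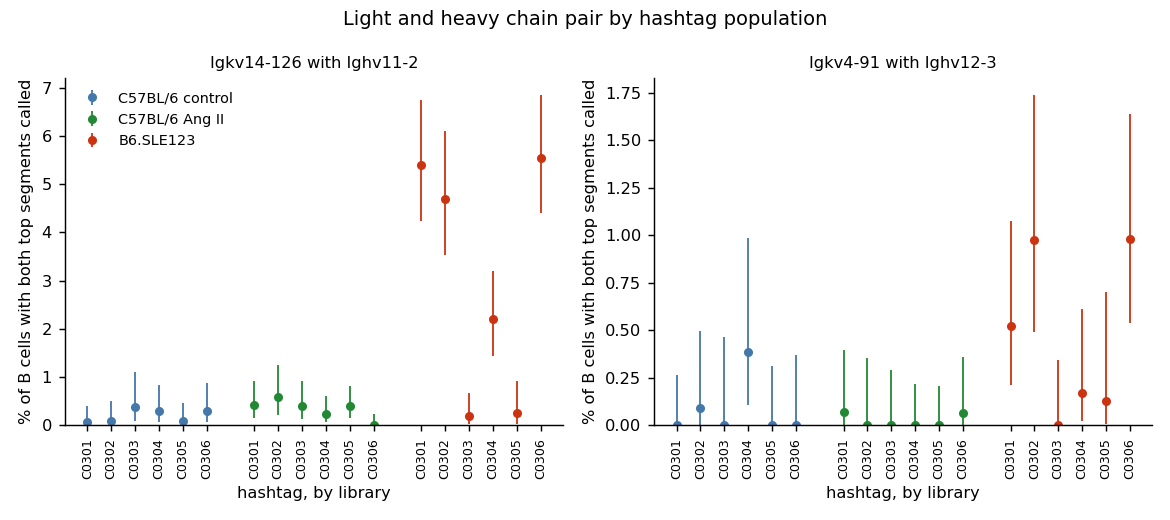
Share of B cells with both chains called that held Igkv14-126 with Ighv11-2 (left) or Igkv4-91 with Ighv12-3 (right), for each hashtag of each library, with 95% counting intervals. Hashtags C0301, C0302 and C0306 of B6.SLE123 stand highest in both panels, at 4.70% to 5.54% and 0.524% to 0.982%, while C0303 and C0305 of B6.SLE123 lie at the level of the control hashtags.

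The 236 B6.SLE123 cells with Igkv14-126 and Ighv11-2 carried markers of B-1 cells. In them Cd5 was at 34.8 CPM against 1.77 CPM in the other 11832 B cells (log2 4.30, interval 3.60 to 4.98), Zbtb32 at 142 against 16.9 CPM (log2 3.07), Bhlhe41 at 68.5 against 13.4 CPM (log2 2.36) and Spn, which encodes CD43, at 40.7 against 16.8 CPM (log2 1.28). Fcer2a, which encodes the follicular B cell marker CD23, was at 3.48 against 120 CPM (log2 -5.10), Ighd at 66.2 against 465 CPM (log2 -2.81) and the complement receptor gene Cr2 at 11.6 against 227 CPM (log2 -4.29). Cd9 was higher, at 189 against 52.5 CPM. The cells of the pair were deeper, with a median of 3397 UMIs against 1964.

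The 35 cells with Igkv4-91 and Ighv12-3 showed Zbtb32 at 227 against 19.7 CPM and Bhlhe41 at 118 against 14.6 CPM. Spn, another B-1 marker, was at 19.7 against 17.4 CPM (log2 0.18, interval -2.87 to 2.04). It rested on 2 UMIs, too few to tell whether it differed. Cd5 rested on 1 UMI in these cells and is not interpreted. Cr2 had 0 UMIs in them.

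Usage was also read in B cells gated on the marker lists. The UMI limits of the gates were set after values had been seen. A B-1 gate (a sum of 2 or more over Cd5, Zbtb32, Bhlhe41 and Spn, with Fcer2a at 0) held 66, 87 and 357 cells, or 0.509%, 0.766% and 2.80% of B cells. Within it, Igkv14-126 was the top segment of 3 of 53 control cells, 6 of 84 Ang II cells (7.14%, interval 2.67 to 14.9) and 67 of 331 B6.SLE123 cells (20.2%, interval 16.0 to 25.0). Igkv4-91 was the top segment of 19 of those 331 cells (5.74%), Igkv5-39 of 17 and Igkv12-89 of 15.

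Gates for marginal zone B cells, which filter blood-borne antigen, and for recirculating follicular B cells differed in Igkv1-135 in the same direction in every library. In the marginal zone gate (a sum of 4 or more over Cr2, Cd1d1 and Cd9, with Fcer2a at 0), Igkv1-135 was the top segment of 6.95% of 820, 6.51% of 768 and 7.91% of 569 cells of the 3 libraries. In the follicular gate (Fcer2a at 2 or more, with Cd9 and Cd1d1 at 0) it was 4.23% of 1748, 3.62% of 3125 and 4.59% of 632 cells. The log2 ratios were 0.72, 0.85 and 0.79, all 3 intervals lay above 0, and the share was higher in the marginal zone gate in 16 of 18 hashtag populations. Of 21 segments with at least 20 cells over both gates in each library, Igkv1-135 was the one whose interval lay above 0 in all 3 libraries, and for none did it lie below 0 in all 3. Igkv8-24 came next, at 3.17% against 1.20% in control, 2.34% against 1.66% in Ang II and 3.69% against 0.949% in B6.SLE123. The cells of the marginal zone gate were deeper, with medians of 3172 to 4476 UMIs against 1921 to 2917. The marginal zone gate did not exclude B-1 cells. It held Igkv14-126 in 13 B6.SLE123 cells (2.28%), 8 Ang II cells (1.04%) and 1 control cell (0.122%).

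The chance that a pair of cells shares its top segment was used to compare diversity between groups of unlike size. Within a hashtag population, a median of 2.27%, 2.22% and 2.31% of pairs of B cells matched in the 3 libraries. Between hashtags of the same library the medians were 2.26%, 2.20% and 2.24%, and between hashtags of the control and B6.SLE123 libraries 2.24%. A pair of B cells from 1 hashtag thus matched about as often as a pair from different libraries.

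Plasma cells of B6.SLE123 matched more often. Within hashtags C0301 to C0306, 4%, 2.82%, 5.13%, 4.55%, 4.76% and 4.68% of pairs matched, on 25, 70, 85, 44, 43 and 19 cells. All 6 were above the highest B cell value of that library, 2.40%. Between hashtags 1.43% to 5.47% of pairs matched, with a median of 2.78%, so the ranges within and between hashtags overlapped. A B cell and a plasma cell of the same hashtag matched in a median of 2.27% of pairs. In the Ang II library 1 hashtag, with 10 plasma cells, could be read, and control had none.

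The plasma cells of B6.SLE123 used 59 segments. Igkv10-96 was the top segment of 19 of 288 cells (6.60%), Igkv1-110 of 18 (6.25%) and Igkv3-4 of 18 (6.25%, interval 3.75 to 9.70). Igkv3-4 was at 1.74% in B cells of the same library, a log2 ratio of 1.84 with an interval of 1.06 to 2.54, and it occurred in all 6 hashtags, with 3, 2, 1, 8, 1 and 3 cells. Igkv8-24 (14 cells, log2 1.34 against B cells, interval 0.44 to 2.11) and Igkv5-39 (13 cells, log2 1.61, interval 0.67 to 2.42) were also more frequent than in B cells. So was Igkv2-109 (10 cells, log2 1.49, interval 0.40 to 2.41), which occurred in only 2 hashtags. Igkv8-24 had 9 of its 14 cells in 1 hashtag. Igkv5-39 was the top segment of 4.51% of plasma cells but gave 1.38% of their Igkv UMIs. Igkv1-135, at 4.85% of B6.SLE123 B cells, was the top segment of 1 of 288 plasma cells (0.347%, interval 0.00879 to 1.92), a log2 ratio of -3.80 with an interval of -9.11 to -1.32.

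The leading segment differed between most hashtags. In C0303, Igkv6-23 was the top segment of 12 of 85 plasma cells (14.1%), against 3.40% of its B cells and 1 plasma cell in all other hashtags together. In C0304, Igkv3-4 led with 8 of 44 cells (18.2%), and in C0305, Igkv2-109 led with 6 of 43 (14.0%). Igkv5-39 led in C0301 with 4 of 25 cells. Igkv10-96 and Igkv14-126 led together in C0302 with 6 of 70 cells each, and Igkv10-96 and Igkv3-4 in C0306 with 3 of 19 each.

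**Figure D4:**
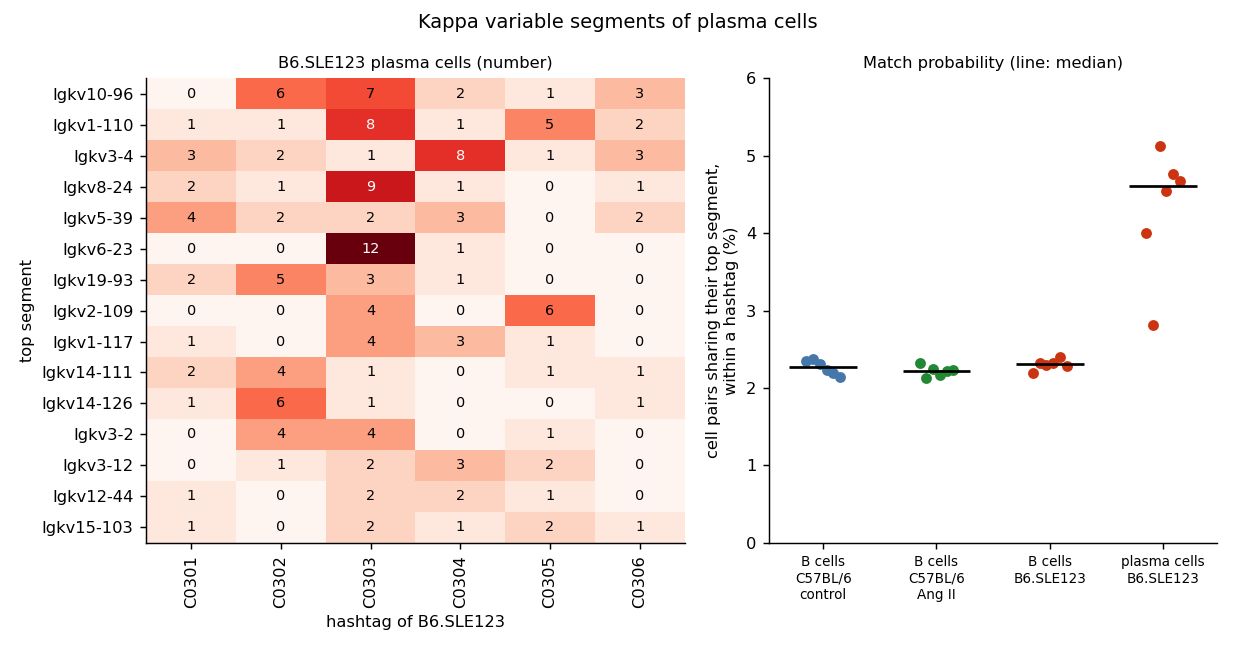
Left, number of B6.SLE123 plasma cells by top segment (the 15 most used) and hashtag; right, percent of pairs of cells within a hashtag that share their top segment, 1 point for each hashtag, with the median as a line; the Ang II hashtag with 10 plasma cells is not drawn. Igkv6-23 is concentrated in C0303 with 12 of 13 cells, and the 6 plasma cell points, 2.82% to 5.13%, lie above the B cell points.

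Adding the heavy chain narrowed these groups. Of 279 B6.SLE123 plasma cells with 1 hashtag and both chains called, 61 (21.9%) held a pair that occurred in 3 or more cells of their hashtag. There were 14 such combinations of pair and hashtag. Igkv2-109 with Ighv1-83 and Igkv3-4 with Ighv1-53 each counted in more than 1 hashtag. Igkv6-23 with Ighv4-1 was found in 11 cells of C0303 and in no plasma cell of another hashtag. Its cells were of several isotypes by their most abundant constant gene, 4 of Ighm, 1 of Ighg1, 1 of Ighg2b, 3 of Ighg2c and 2 of Ighg3, and 7 B cells of C0303 held the same pair. Igkv8-24 with Ighv1-12 was found in 6 cells of C0303, all of Ighm. Igkv2-109 with Ighv1-83 was found in 6 cells of C0305 and in 3 of C0303. Igkv19-93 with Ighv3-8 was found in 4 cells of C0302, all of Ighg2c. Igkv3-4 with Ighv1-53 was found in 3 cells each of C0301 and C0306, all of Ighm.

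Cells with the same pair of segments need not descend from 1 B cell, since joining segments and junctions were not read here. Igkv14-126 with Ighv11-2 was found in 8 plasma cells of B6.SLE123, of 281 with both chains called (2.85%, interval 1.24 to 5.53), with 6 of them in C0302, all of Ighm. The share in B cells was 3.34%. Igkv4-91 with Ighv12-3 was found in 0 of 281, although 35 B cells held it.

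In the C57BL/6 libraries plasma cells were few. In control, Igkv1-135 was the top segment of 3 of 15 plasma cells (20%, interval 4.33 to 48.1) and Igkv3-2 of 2, and every other segment, Igkv1-110 among them, of at most 1. In Ang II, Igkv19-93 and Igkv6-15 were each the top segment of 3 of 34 plasma cells and Igkv10-94, Igkv10-96, Igkv4-59, Igkv8-27 and Igkv8-30 of 2 each, and Igkv6-15 led in C0304 with 2 of 10 cells. By isotype, Ighm was the most abundant constant gene in 12 of 15, 27 of 34 and 134 of 288 plasma cells of the 3 libraries, and Ighg2c in 1, 5 and 93.

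The other genes of the light chain loci were compared by CPM in B cells. All Igkv UMIs together were 9329 CPM in control, 8747 in Ang II (log2 -0.09) and 11695 in B6.SLE123 (log2 0.33), with overlapping hashtag ranges in both contrasts. Igkc was at 1608, 1255 and 1324 CPM, log2 ratios of -0.36 for Ang II, with hashtag ranges apart, and -0.28 for B6.SLE123, with overlapping ranges. Of the joining segments, Igkj2 was at 14.5, 13.9 and 8.15 CPM and Igkj5 at 12.4, 14.6 and 6.61 CPM, both lower in B6.SLE123 than in control with hashtag ranges apart. Igkj1 and Igkj4 were at about 1 CPM or less, and Igkj3, which is not functional in the mouse, had 0 UMIs. The lambda segment Iglv1 was at 613, 484 and 626 CPM and Iglv2 at 224, 144 and 124 CPM (log2 -0.86 for B6.SLE123). The lambda constant genes Iglc1, Iglc2 and Iglc3 had log2 ratios of -0.27, -0.26 and -0.41 in B6.SLE123 and -0.32, -0.41 and -0.19 in Ang II. Hashtag ranges of these lambda genes overlapped those of control, except for Iglc2 in Ang II (1040 to 1370 against 1507 to 1864 CPM).

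The genes of recombination were at the limit of detection in B cells. Rag1 had 23, 28 and 38 UMIs in the 3 libraries, Rag2 had 2, 4 and 5, and Dntt, which adds bases at the junctions, had 1, 1 and 35. Over B6.SLE123 hashtags Dntt ran from 0 to 6.18 CPM and Rag1 from 0 to 5.47 CPM, and both ranges overlapped those of control. Several heavy chain constant genes differed more than any light chain segment. In B6.SLE123 B cells against control, Ighg2c was at 168 against 0.826 CPM (log2 7.67), Ighg1 at 101 against 1.01 CPM (log2 6.65) and Ighg3 at 76.9 against 6.07 CPM (log2 3.66), each with hashtag ranges apart. Ighe (log2 3.55), Igha (log2 0.57) and Ighg2b (log2 0.24) were also higher, but with overlapping hashtag ranges. Ighd was lower, at 453 against 788 CPM (log2 -0.80), with ranges apart. Ighm was lower (log2 -0.42) with overlapping ranges. In Ang II against control, Ighm was at log2 -0.69 and Ighd at -0.41, both with ranges apart. Ighg2b was at -2.47 with overlapping ranges, and its control hashtags ran from 3.65 to 154 CPM. A few B cells near the plasma cell limits may hold many such UMIs, and their part in these values was not tested.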

How the data were processed

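The authors deposited raw UMI counts per gene and hashtag in each barcode, counted on build mm10 per the submitters' processing notes (the file headers name Cell Ranger 6.0.0), with no normalization. How reads on near-identical segments were treated is not given in the sources used here. Barcodes with over 200 and under 3500 genes and under 15% mitochondrial UMIs were kept. The paper gives the limits of 200 and 3500 as RNA counts, which can also be read as UMIs. Read so, they left 10 B6.SLE123 plasma cells with a top segment, against 288 with the limits used here. Hashtags were called by an Otsu threshold on log counts per library, and barcodes with several hashtags were removed; doublets within 1 hashtag were not seen. Depth per library is given with the results, and 0 columns belonged to other samples.

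All 160 Igkv rows matched GENCODE vM21 (GRCm38) by identifier. The members and lists were chosen with earlier results of these data known. Named were the 10 leading control B cell segments, the 5 highest and 5 lowest log2 ratios of each contrast among segments top in 50 or more B cells, the 3 leading plasma cell segments of each library and the leader of each hashtag with 10 or more plasma cells, both phosphatidylcholine pairs, and the other light chain, recombination and constant genes. Other segments named, from the gates, repeated pairs and non-B cells, were chosen after their values were seen.

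Shares carry exact Clopper-Pearson intervals, and ratios carry exact conditional intervals; a count of 0 is set at 3 counts. No test was made. A germinal centre gate is not reported here. The calculations were tested on simulated data. Alternatives covered the cell limits, doublets, the top segment rule, the class rules, UMI shares, the division of the locus and each hashtag left out. Python 3.11.15, numpy 2.4.6, scipy 1.17.1, pandas 2.3.3 and matplotlib 3.10.9 were used.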

Additional observations from a re-analysis of the deposited data

Results flagged for a closer look

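For each named segment, the hashtag shares of B cells were checked for a single hashtag far from the other 5. In 84 sets of 6 hashtags, 4 had such a value, and chance alone gives about 1 in 20. In Ang II, hashtag C0306 had 0.223% of B cells with Igkv14-126, below the other 5 at 0.722% to 0.997%. Igkv6-20 was high in Ang II hashtag C0302, at 1.27% against 0.612% to 0.845%, and in B6.SLE123 hashtag C0305, at 1.12% against 0.370% to 0.597%. Igkv1-135 was high in B6.SLE123 hashtag C0302, at 5.89% against 4.32% to 4.85%.

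Igkv RNA was read outside B and plasma cells, which the comparisons of usage did not include. A top segment was called in 15.2% of B6.SLE123 and 2.62% of Ang II non-B cells, above the 1.08% of the control library.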

How the results depend on the processing

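No paired analysis was possible because each group was 1 library. The number of segments past 2-fold in B6.SLE123 was 1 rather than 2 with the limits read as UMIs and without doublet removal. It was also 1 with a top segment of at least 1 or 5 UMIs or with 80% of Igkv UMIs. With any hashtag left out it was 1 (range 1 to 1), and by summed UMIs it was 10. Igkv1-99 lay at the minimum of 50 cells, so leaving out any hashtag dropped it from the count whatever its ratio. That ratio was log2 0.93 to 1.28 with hashtags left out and 1.11 with UMI limits. Ang II had 0 throughout (range 0 to 0) except 1 by summed UMIs. The Igkv14-126 log2 ratio was 1.70 with UMI limits, 2.55 at 80% and 2.73 by summed UMIs (hashtags left out 1.98 to 2.32), and that of its pair with Ighv11-2 was 3.94 to 4.43 with hashtags left out. UMI limits left 10 plasma cells in B6.SLE123, with 10% in the 3 leading segments, and too few for match probabilities (19.1% in the main setting, 17.5% to 21.1% with hashtags left out). Without doublet removal the match probabilities within hashtags have no other value, since a doublet has no single hashtag. For B cells they were 2.43% in control and 2.44% in B6.SLE123 at 5 or more UMIs, and 2.39%, 2.29% and 2.47% in control, Ang II and B6.SLE123 at 80%. With hashtags left out, they were 2.24% to 2.31%, 2.21% to 2.23% and 2.29% to 2.32% in these 3 libraries, and for B6.SLE123 plasma cells 4.55% to 4.68% within and 2.25% to 3.20% between hashtags. With hashtags left out, the difference of the farthest part of the locus from control was 1.59 to 2.24 points in B6.SLE123 and -1.40 to -0.80 in Ang II, and under the other alternatives 1.78 to 2.95 and -1.91 to -0.70. Among the 19 other ratios and 380 alternatives, 2 moved beyond the counting interval and 1 reversed, Igkv9-124 at -0.90 by summed UMIs; the cause was not tested. B cells with under 100 Igkv UMIs, an alternative chosen after seeing the data, moved none of these values beyond its spread. The number of B cells limits shares of rare segments, and the 15 and 34 plasma cells with a top segment limit the plasma cell values of the C57BL/6 libraries.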
